A study of Mus musculus with 18 samples.

Results

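The nuclear genes of respiratory complexes I, II, III and V, with cytochrome c, were followed across RNA-seq libraries of the soleus and the gastrocnemius of mice. Members were taken by gene symbol: the Ndufa, Ndufab, Ndufb, Ndufc, Ndufs and Ndufv genes, Sdha to Sdhd, the Uqcr subunit genes, Cyc1, Cycs, and every gene whose symbol starts with Atp5, pseudogenes left out. The rule found 68 of the 41388 features counted (0.164%), of which 37 belong to complex I, 4 to complex II, 9 to complex III and 17 to complex V, and Cycs encodes cytochrome c itself. All 68 passed the filter on low counts in each comparison, and 66 had at least 1000 counts in every library. Ndufa4, listed here with complex I by its name, is now counted with complex IV, and Atp5s encodes coupling factor B, a protein associated with the ATP synthase.

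These complexes sit in the inner mitochondrial membrane. Complex I takes electrons from NADH and complex II takes them from succinate, both pass them on through ubiquinone to complex III, and cytochrome c carries them to complex IV. Complexes I, III and IV pump protons, and complex V, the ATP synthase, lets the protons flow back through a ring of c subunits to make ATP. All subunits of complex II are encoded in the nucleus, whereas the other complexes also hold subunits encoded in mitochondrial DNA, and slow oxidative muscle fibres are known for a high mitochondrial content.

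The mice were 12 weeks old, ate standard chow and were fasted for 4 h before the muscles were taken. The 4 soleus libraries labelled knockout (numbered 35, 39, 40 and 42 in their titles) and the 4 gastrocnemius libraries labelled knockout (2, 6, 7 and 9) came from mice with a floxed Site-1 Protease gene and HSACre, in which an actin promoter expressed in skeletal muscle drives Cre. The 5 soleus controls (34, 36, 37, 38 and 41) and the 5 gastrocnemius controls (1, 3, 4, 5 and 8) carried the floxed allele without Cre, so the floxed allele was shared by all groups, and no library stands for Cre alone. The series text gives 4 per group, and the titles were followed. No label says that the libraries of a group came from separate mice, so the p-values measure the spread between these samples, which may be technical. Ribosomal RNA was removed with a KAPA RiboErase kit before sequencing. The libraries hold RNA of whole muscle, in which fewer fibres of a type and less RNA per fibre cannot be told apart.

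Library totals were 39.0 to 78.2 M counts. Mbtps1, the gene of Site-1 Protease, lay at 31.0 to 36.3 CPM (counts scaled to an equal library total) in soleus libraries labelled knockout and 30.5 to 34.4 CPM in soleus controls, and at 34.7 to 42.8 CPM in gastrocnemius libraries labelled knockout and 29.6 to 34.9 CPM in gastrocnemius controls. It was not lower in either muscle. The labels do not say which exons the floxed allele loses, and a count over the whole gene does not check for the loss of exons, so knockout and control are the labels' terms and every direction rests on the titles. Fast-fibre myosin Myh4 was at 223 to 5620 CPM in soleus libraries labelled knockout and 127 to 4440 CPM in soleus controls, against 75400 to 83500 CPM and 76700 to 91600 CPM in the gastrocnemius groups in the same order. The giant gene Ttn took 11.87% to 15.06% of counts in the soleus. In the gastrocnemius it took 12.56% and 11.27% in knockout libraries 2 and 6 and 12.08% in control 3, and 6.76% to 9.19% in the others. The same 3 gastrocnemius libraries gave the lowest shares of counts to the members (1.212%, 1.178% and 1.159%, against 1.265% to 1.48% in the others), so counts of called members are also given without these 3 libraries wherever the gastrocnemius enters, which leaves 2 gastrocnemius libraries labelled knockout and 4 gastrocnemius controls.

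Levels are CPM on library sizes scaled by the trimmed mean of M-values (TMM), in one scaling of all 18 libraries. Summed over the 68 members, soleus libraries labelled knockout held 15890, 18860, 16010 and 14270 CPM, against 16730, 17720, 17280, 15300 and 16040 CPM in soleus controls. Gastrocnemius libraries labelled knockout held 13020, 12940, 15290 and 14560 CPM, against 14390, 12640, 14560, 15760 and 15270 CPM in gastrocnemius controls. Within each muscle the labelled groups overlapped, and the soleus sums lay above most of the gastrocnemius sums. Complex V made up the largest part, with a mean of 7196 ± 807 CPM in soleus libraries labelled knockout and 7394 ± 426 CPM in soleus controls (SD, n = 4 and 5). In the gastrocnemius its mean was 6154 ± 512 CPM in libraries labelled knockout and 6307 ± 533 CPM in controls (SD, n = 4 and 5). Complex I, with more genes, summed to 4933 ± 619 and 5038 ± 337 CPM in the soleus groups and to 4415 ± 396 and 4705 ± 396 CPM in the gastrocnemius groups, libraries labelled knockout first in each pair (SD, n = 4 and 5).

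**Figure D1:**
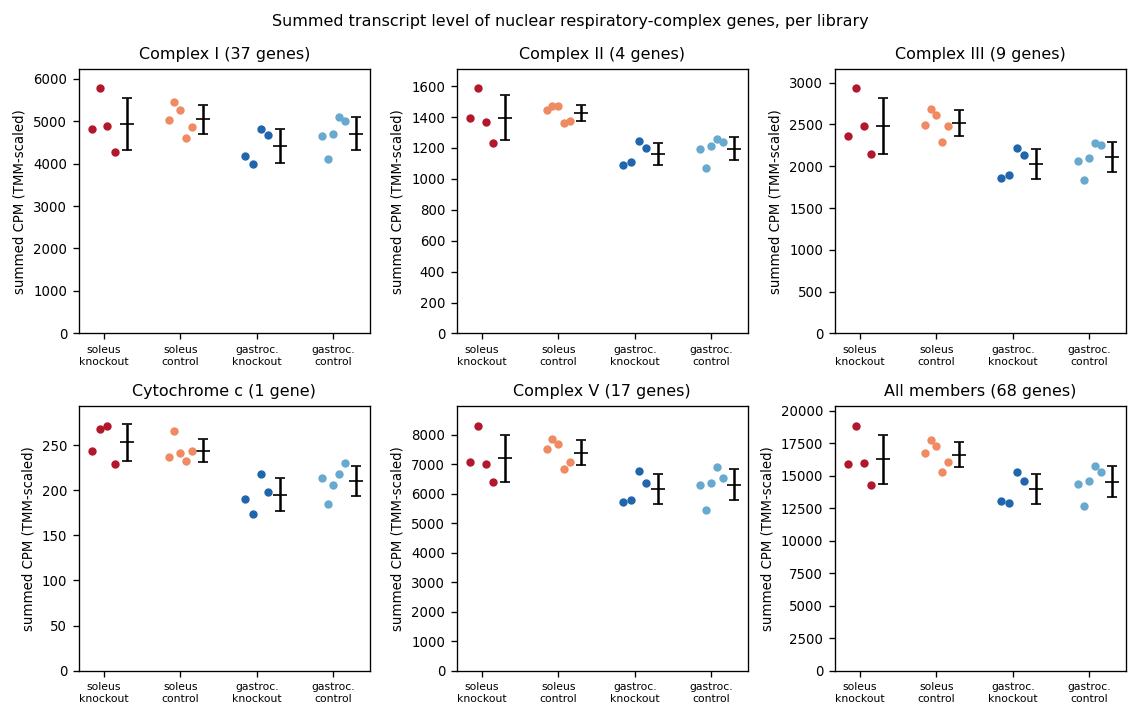
Summed transcript level per library (TMM-scaled CPM, linear axis from 0) of the genes of each complex in soleus and gastrocnemius libraries labelled knockout and control. Each point is 1 library and the bar beside it is the group mean ± SD; within a muscle the labelled groups overlap in every panel, and the soleus libraries of complex II lie between 1231 and 1585 CPM against 1068 to 1256 CPM in the gastrocnemius.

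Per kilobase of gene length, the authors' RPKM values ranged widely within a complex. In soleus controls the median member stood at 134.5 RPKM. Atp5a1, the α subunit of the ATP synthase head, was highest at 723 ± 47.2 RPKM (SD, n = 5), and the highest of complex III was Uqcrc1, a core subunit, at 487 ± 12.2 RPKM (SD, n = 5). Ndufa4 was listed at 541 ± 78.0 RPKM (SD, n = 5). Atp5s was the lowest complex V gene at 4.03 ± 0.445 RPKM (SD, n = 5). Ndufb2, a small subunit of the membrane arm, was listed lowest of all at 2.47 ± 0.211 RPKM (SD, n = 5). Its locus overlaps Adck2 on the same strand and Braf on the other, whose mean counts were 387.4 and 972.4 beside its own 613.6, so its count is uncertain. Atp5j, Atp5o, Ndufb11 and Ndufs1 also overlap an expressed gene on the other strand, and the labels do not say whether counting used strand.

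The first question was whether the members differed between libraries labelled knockout and controls. In the gastrocnemius none of the 68 did by edgeR's quasi-likelihood test with Benjamini-Hochberg adjustment over all genes tested (0 called, against 3.78% of the 16393 genes tested). At an unadjusted p under 0.05 the test picked 7 members, against 18.6% of all genes, and DESeq2 and limma voom called 0 with 8 and 7 members at that level. That number of 7 rested on single libraries: it was 1 without knockout 6 or control 8, 2 without knockout 2 or control 5, 13 without knockout 7 and 15 without control 3. Of the 68, 10 had a positive log2 fold change (53.5% of all genes) and the median was -0.09, beside 0.02 over all genes tested, and no member's groups failed to overlap, against 8.41% of all genes. The fold changes ran from -0.34 (Atp5s) to 0.06 (Atp5k), and the 95% interval lay within 1.5-fold of no change for 66 members and within 2-fold for all 68. Without knockout libraries 2 and 6 and control 3, 0 members were called, 25 were positive and the median was -0.02. Of all genes in that fit 4.6% were called, and their median was 0.01. On raw library totals 28 members were positive and 0 had an unadjusted p under 0.05, against 3058 of the 16393 genes tested.

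By complex, the median log2 fold change in the gastrocnemius was -0.09 for complex I, -0.06 for complex II, -0.06 for complex III and -0.09 for complex V, none with a called gene. The smallest adjusted p belonged to Ndufs7, a core subunit that carries an iron-sulfur cluster next to the ubiquinone site (ENSMUSG00000020153, GRCm38 chr10:80249121-80256794). It had 183, 168, 188 and 185 CPM in libraries labelled knockout, against 211, 180, 223, 218 and 213 CPM in controls. Control 3 fell among the libraries labelled knockout and the other 4 controls stood above them all. The log2 fold change was -0.21 (SE 0.07, adjusted p = 0.124 by edgeR), and without control 3 it was -0.25 (adjusted p = 0.0397), which made Ndufs7 the only member called in any fit of this comparison that left out 1 library.

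The other members with an unadjusted p under 0.05 in the gastrocnemius were Ndufs4 (log2 fold change -0.25), Ndufa7 (-0.24), Ndufb8 (-0.19), Sdhc (-0.18), Uqcr10 (-0.21) and Atp5s (-0.34), with adjusted p between 0.169 and 0.248 by edgeR. Ndufb8, a membrane-arm subunit whose protein is often blotted as a sign of assembled complex I, was at 128 ± 11.6 CPM in libraries labelled knockout and 146 ± 14.0 CPM in controls (SD, n = 4 and 5). The iron-sulfur subunit Sdhb of complex II was at 268 ± 31.3 CPM in libraries labelled knockout and 264 ± 19.8 CPM in controls (SD, n = 4 and 5), and the core subunit Uqcrc2 of complex III at 207 ± 26.3 and 201 ± 17.2 CPM in the same order. The catalytic β subunit Atp5b was at 1810 ± 139 CPM in libraries labelled knockout and 1740 ± 143 CPM in controls (SD, n = 4 and 5). None of these genes passed the threshold.

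In the soleus, 0 of 68 members were called (0.0553% of the 18087 genes tested), and 0 had an unadjusted p under 0.05, against 8.19% of all genes; DESeq2 and limma voom gave the same 2 zeros. The median log2 fold change was -0.03 with 20 of 68 positive (49.9% of all genes), beside a median of -0.0004 over all genes, and in no member did the groups fail to overlap (2.55% of all genes). That balance rested on single libraries: 4 members were positive without soleus knockout 39, with 6 at an unadjusted p under 0.05, and 53 were positive without soleus knockout 42, with 1. Fold changes ran from -0.17 (Ndufb3) to 0.23 (Atp5s), and 67 of the 68 intervals lay within 1.5-fold of no change. Cycs was at 253 ± 20.2 CPM in libraries labelled knockout and 244 ± 13.1 CPM in controls (SD, n = 4 and 5). Cyc1, the cytochrome c1 subunit of complex III, was at 383 ± 40.9 and 375 ± 17.1 CPM in the same order.

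**Figure D2:**
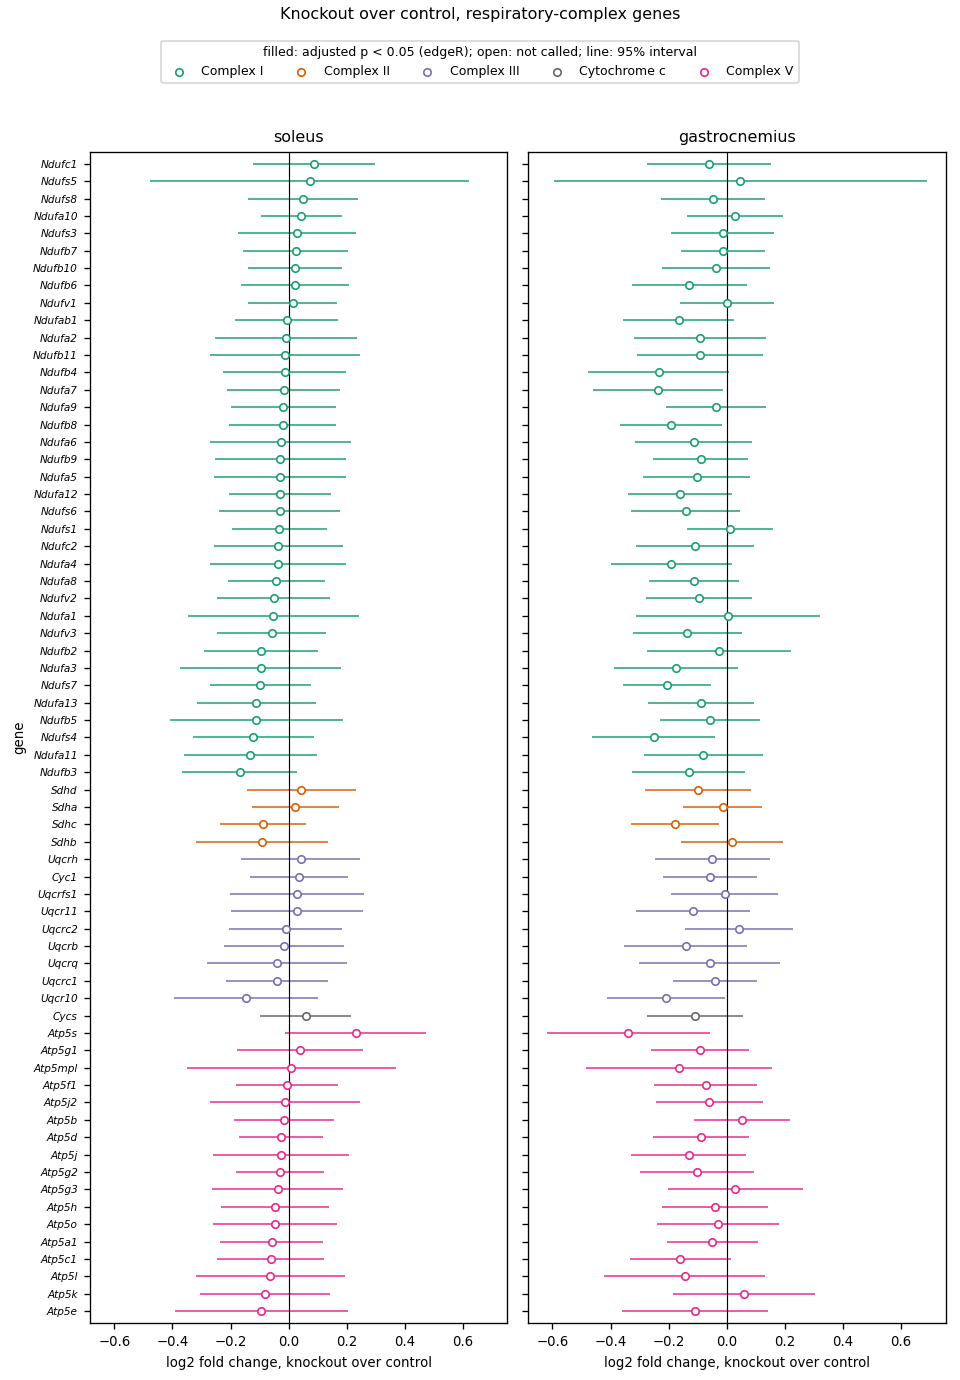
Log2 fold change of libraries labelled knockout over controls for 67 of the 68 genes, soleus in the left panel and gastrocnemius in the right, ordered by complex and by the soleus value. Points are edgeR estimates, lines are 95% intervals and filled points would mark adjusted p under 0.05; none is filled, and the estimates run from -0.17 to 0.23 in the soleus and from -0.34 to 0.06 in the gastrocnemius.

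The knockout effect itself was compared between the muscles (soleus minus gastrocnemius, all 18 libraries in one fit). No member was called (0 of 68, against 0.0703% of the 18494 genes tested), and 1 had an unadjusted p under 0.05, against 5.4% of all genes. That member was Atp5s. It had 6.56, 7.08, 6.85 and 5.39 CPM in soleus libraries labelled knockout, against 5.4, 6.08, 6.04, 5.08 and 5.05 CPM in soleus controls. In the gastrocnemius it had 5.34, 4.85, 5.89 and 5.21 CPM in libraries labelled knockout, against 5.49, 7.95, 5.99, 6.72 and 7.52 CPM in controls. The groups overlapped in both muscles, and the difference of the effects was 0.56 (SE 0.17, adjusted p = 0.512 by edgeR). The difference was positive for 52 of 68 members, against 45.0% of all genes, with a median of 0.07. Without soleus knockout 39 it was positive for 26 members and the median turned to -0.03, so the direction rested on that library. With gastrocnemius control 3 and knockouts 2 and 6 left out, 0 members were called and 50 were positive. Of all 19454 genes tested in that fit, 9 were called. The median was 0.03 over the members and 0.03 over all genes. For 65 of 68 members the 95% interval of the difference lay within 1.5-fold of none.

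Of the markers of other cells in the gastrocnemius, none of 8 for macrophages and none of 5 for fibroblasts was called, with 7 and 3 at an unadjusted p under 0.05. The 8 macrophage markers summed to 137 to 261 CPM in libraries labelled knockout and 101 to 145 CPM in controls, and the 5 fibroblast markers to 2450 to 4050 CPM and 1820 to 3050 CPM in the same order. These ranges overlapped, no marker of either list was at 0 in a whole group, and the macrophage marker Cd163 ran the other way (-0.23). Of the 3 markers of brown adipocytes, cells known for many mitochondria, 2 were tested and 1 was called. Ucp1, the uncoupling protein, was at 2.91 on the log2 scale (adjusted p = 0.00732 by edgeR). It had 0.937 to 1.29 CPM in libraries labelled knockout and 0 to 0.268 CPM in controls, at most 68 counts in a library. Cidea lay at 0.399 to 1.31 and 0.159 to 0.964 CPM in the same order, and Elovl3 at 0.0471 to 0.173 and 0.0645 to 0.214 CPM, both overlapping. Of 6 markers of adipocytes in general none was called, all 6 were negative and 2 had an unadjusted p under 0.05. Of 3 satellite cell markers, Pax7 was higher (0.85, adjusted p = 0.0219) and Cdh15 lower (-0.32, adjusted p = 0.0447). The third, Myf5, was at 0.99 with an unadjusted p under 0.05 by edgeR and was not called.

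Of the 8 muscle fibre markers none was called in the gastrocnemius. All 8, fast and slow, had a negative log2 fold change (median -0.18), and 4 had an unadjusted p under 0.05. Fast troponin T, Tnnt3, was at 10500 to 12200 CPM in libraries labelled knockout and 11500 to 14700 CPM in controls. Slow myosin Myh7 averaged 257 CPM in libraries labelled knockout and 453 CPM in controls (log2 fold change -0.82, unadjusted p = 0.0404 and adjusted p = 0.237 by edgeR). Slow troponin T, Tnnt1, averaged 57.7 and 96.3 CPM in the same order (-0.74, unadjusted p = 0.0271 and adjusted p = 0.194). In the soleus Myh7 and Tnnt1 were at -0.36 and -0.34, with adjusted p of 0.497 and 0.458. The part of these cells and fibres in the members' negative median was not tested.

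The proteins that assemble the complexes gave 1 called gene. Of 31 assembly factors tested in the gastrocnemius, 1 was lower in libraries labelled knockout and 0 higher (3.2% of the list lower, against 2.01% of all genes), and in the soleus none was called. The gene was Timmdc1, which encodes an assembly factor for the membrane arm of complex I (ENSMUSG00000002846, GRCm38 chr16:38498347-38522663). Gastrocnemius libraries labelled knockout had 23.5, 25.0, 24.9 and 26.2 CPM, against 33.8, 31.6, 31.7, 36.2 and 33.6 CPM in controls. The groups did not overlap. The log2 fold change was -0.42 (SE 0.07, adjusted p = 0.00486 by edgeR), and Timmdc1 was called in all 18 alternative fits, with values from -0.45 to -0.36 and adjusted p from 3.49e-06 to 0.0258. In the soleus it had 27.5, 29.1, 24.8 and 24.2 CPM in libraries labelled knockout, against 28.1, 31.6, 32.7, 33.9 and 32.3 CPM in controls. Only control 34 fell within the range of the libraries labelled knockout there, and the log2 fold change was -0.26 (SE 0.08, adjusted p = 0.38 by edgeR), not called in any of 17 alternatives. The difference of the effects was 0.16 (SE 0.10, adjusted p = 0.985 by edgeR), so the 2 muscles were not shown to differ.

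The second comparison was between the muscles, taken separately in mice labelled knockout and in controls from one fit of all 18 libraries. The pairs share no library. In mice labelled knockout, 31 of 68 members were higher in the soleus (45.6%) and 0 lower, whereas over all 18494 genes tested 37.8% were called, 19.2% higher and 18.5% lower. In control mice, 28 members were higher in the soleus and 7 lower (51.5% called, of all genes 49.3%, with 27.4% higher and 21.9% lower). The share of members called in controls was near that of all genes. The called members were mostly higher in the soleus, with 26 members higher in both pairs. How many of all genes were higher in both pairs was not counted. The members' median log2 fold change was 0.24 in mice labelled knockout and 0.18 in controls, beside 0.03 and 0.08 over all genes. Groups failed to overlap for 13 members higher and 0 lower in mice labelled knockout (all genes 16.5% and 15.9%) and for 16 higher and 1 lower in controls (all genes 19.7% and 17.0%).

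These splits depended on the scaling, and TMM factors were 1.054 to 1.153 in soleus libraries and 0.869 to 0.968 in gastrocnemius libraries. On raw library totals, 51 members were higher in the soleus and 0 lower in each pair (75.0% called). Of all 18494 genes, 6339 were higher and 1751 lower in mice labelled knockout (43.7% called), and 8386 were higher and 2122 lower in controls (56.8% called). The median of all genes moved to 0.27 in mice labelled knockout and 0.35 in controls. The members' median lay above that of all genes by 0.20 with TMM and 0.20 on raw totals in mice labelled knockout, and by 0.09 and 0.10 in controls. That gap was smaller without some libraries. In mice labelled knockout it was 0.106 without soleus knockout 39 and 0.0853 without gastrocnemius knockouts 2 and 6 and control 3, and in controls it was 0.0325 without gastrocnemius control 3 and 0.021 without those 3 libraries. Without knockout libraries 2 and 6 and control 3, 7 members were higher and 3 lower in mice labelled knockout (all genes 35.2% called), and 14 were higher and 7 lower in controls (all genes 48.6% called). The 3 lower ones in mice labelled knockout were Ndufb4 (-0.41), Ndufc1 (-0.35) and Atp5g2 (-0.24). Over 28 fits, 7 members were called higher in every fit in mice labelled knockout and 12 in controls, and 5 in both: Ndufb3, Ndufv1, Sdhb, Sdhc and Atp5h. How many of all genes were called in every fit was not counted, so these numbers describe the members alone.

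**Figure D3:**
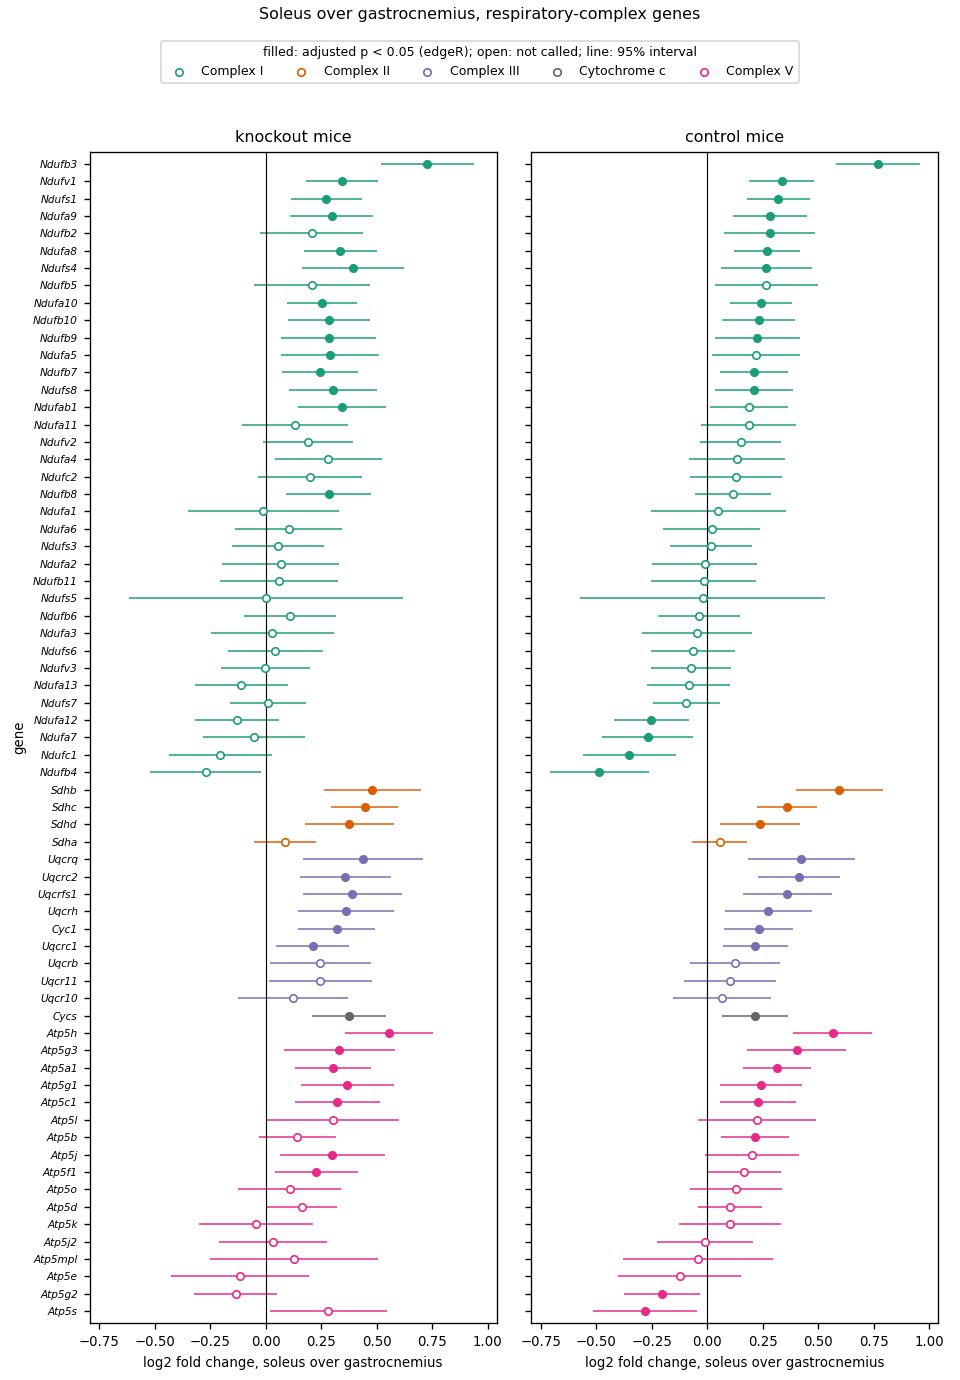
Log2 fold change of soleus over gastrocnemius for 67 of the 68 genes in mice labelled knockout (left panel) and control mice (right panel), grouped by complex and ordered by the control value. Points are edgeR estimates on TMM-scaled counts, lines are 95% intervals, and filled points have adjusted p under 0.05; Ndufb3 stands furthest to the right at 0.73 and 0.77, and the filled points left of 0 are in control mice and were not called on raw library totals.

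Complex I had called genes on both sides. In mice labelled knockout 14 of its 37 genes were higher in the soleus and 0 lower, and in controls 12 were higher and 5 lower. The share called was 37.8% in mice labelled knockout and 45.9% in controls, no higher than the 37.8% and 49.3% of all genes. Without gastrocnemius control 3 and knockouts 2 and 6, Ndufb3 and Ndufv1 alone of the 14 stayed called in mice labelled knockout and 2 genes were lower, while in controls 6 were higher and 6 lower. In mice labelled knockout, 7 genes were higher without soleus knockout 39, 8 without gastrocnemius knockout 6 and 9 without gastrocnemius knockout 2, and in controls 7 were higher without soleus control 36 and 3 lower without gastrocnemius control 5 or 8 or soleus control 38. Ndufb3, an accessory subunit of the membrane arm (ENSMUSG00000026032, GRCm38 chr1:58586384-58595964), had the largest difference of all members. It had 101, 125, 104 and 105 CPM in soleus libraries labelled knockout and 112, 136, 139, 112 and 115 CPM in soleus controls. In the gastrocnemius it had 67.7, 55.5, 73.3 and 66.5 CPM in libraries labelled knockout and 68.3, 61.9, 71.7, 78.5 and 79.9 CPM in controls. Every soleus library stood above every gastrocnemius library. Its log2 fold change was 0.73 in mice labelled knockout (SE 0.10, adjusted p = 5.76e-06 by edgeR) and 0.77 in controls (SE 0.09, adjusted p = 3.33e-07).

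Ndufb4, a neighbour of Ndufb3 in name and also a membrane-arm subunit (ENSMUSG00000022820, GRCm38 chr16:37647170-37654453), ran the other way. It had 45.8, 56.3, 52.3 and 43.1 CPM in soleus libraries labelled knockout, against 57.4, 49.6, 67.9 and 63.4 CPM in gastrocnemius libraries labelled knockout. Soleus controls had 52.4, 57.7, 47.5, 41.9 and 51.0 CPM, against 71.9, 56.7, 63.3, 75.6 and 83.1 CPM in gastrocnemius controls. The muscles overlapped in each pair, in controls by 1 soleus and 1 gastrocnemius library. The log2 fold change was -0.27 in mice labelled knockout (SE 0.12, adjusted p = 0.0841 by edgeR) and -0.49 in controls (SE 0.11, adjusted p = 0.000873), and on raw totals it was -0.04 and -0.22 (adjusted p = 0.807 and 0.106).

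The ratio of the 2 genes needs no scaling between libraries. Per length, log2 Ndufb3 over Ndufb4 was 1.75, 1.77, 1.61 and 1.90 in soleus libraries labelled knockout and 1.72, 1.85, 2.17, 2.03 and 1.79 in soleus controls. It was 0.856, 0.778, 0.726 and 0.686 in gastrocnemius libraries labelled knockout and 0.542, 0.743, 0.797, 0.672 and 0.560 in gastrocnemius controls. The muscles were far apart, and the labelled groups overlapped within each. The pair was chosen after its values were seen and was not tested.

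Other complex I genes lower in control soleus included Ndufc1 (-0.35), Ndufa7 (-0.27) and Ndufa12 (-0.25) on the log2 scale, with adjusted p from 0.00608 to 0.0292 by edgeR. On raw totals none of these was called and Ndufa12 turned to 0.01, while without control 3 and knockouts 2 and 6 these 3 stayed called, at -0.43, -0.37 and -0.34. Ndufc1, an accessory subunit of the membrane arm (ENSMUSG00000037152, GRCm38 chr3:51404677-51408988), had 78.2, 105, 93.6 and 75.9 CPM in soleus libraries labelled knockout, against 95.2, 86.2, 120 and 105 CPM in gastrocnemius libraries labelled knockout. Controls had 88.2, 90.7, 83.9, 73.9 and 79.8 CPM in the soleus and 101, 96.3, 96.7, 113 and 124 CPM in the gastrocnemius. The muscles overlapped in mice labelled knockout and not in controls. Of the subunits that take up electrons from NADH, Ndufv1, which binds the flavin, was 0.34 higher in each pair (SE 0.08 and 0.07, adjusted p = 0.00149 and 0.000423 by edgeR, mice labelled knockout first) and Ndufs1 0.27 and 0.32 higher. Without the 3 libraries Ndufs1 was at 0.21 in mice labelled knockout and not called (adjusted p = 0.0853 by edgeR).

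Complex II was split between its catalytic genes. Sdhb (ENSMUSG00000009863, GRCm38 chr4:140961203-140979193), which holds the iron-sulfur clusters, had 379, 456, 364 and 295 CPM in soleus libraries labelled knockout, against 239, 245, 304 and 283 CPM in gastrocnemius libraries labelled knockout. Soleus controls had 404, 434, 413, 385 and 360 CPM, against 256, 235, 268, 286 and 277 CPM in gastrocnemius controls. Only soleus knockout 42 reached into the gastrocnemius range. On the log2 scale it was higher by 0.48 in mice labelled knockout (SE 0.11, adjusted p = 0.00102 by edgeR) and 0.60 in controls (SE 0.09, adjusted p = 2.01e-05).

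Sdha (ENSMUSG00000021577), the flavoprotein that oxidises succinate, was at 675 ± 51.8 CPM in soleus and 635 ± 29.8 CPM in gastrocnemius libraries labelled knockout (SD, n = 4 each). In controls it was at 667 ± 15.1 CPM in the soleus and 641 ± 33.3 CPM in the gastrocnemius (SD, n = 5 each). Its log2 fold changes of 0.09 and 0.06 did not pass (adjusted p = 0.321 and 0.456 by edgeR). The membrane anchors Sdhc and Sdhd were higher in the soleus in both pairs, by 0.45 and 0.38 on the log2 scale in mice labelled knockout and 0.36 and 0.24 in controls. Without gastrocnemius control 3 and knockouts 2 and 6 Sdhb, Sdhc and Sdhd stayed called in mice labelled knockout, and Sdhd was not called in controls (0.13, adjusted p = 0.2 by edgeR). Per length, log2 Sdhb over Sdha averaged -0.07 in soleus and -0.46 in gastrocnemius libraries labelled knockout (n = 4 each), and 0.05 and -0.49 in controls (n = 5 each). By two-sided exact permutation tests the difference had p = 0.0286 in mice labelled knockout, the smallest that 4 against 4 allows, and p = 0.00794 in controls, the smallest that 5 against 5 allows. Adjusted over 16 such ratio tests these became 0.0762 and 0.0423. The 16 tests, which include those of the subunit c shares below, were not planned. The ratio sets the complex II gene with the largest difference against the one with the smallest, so its p-values add no separate support.

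**Figure D4:**
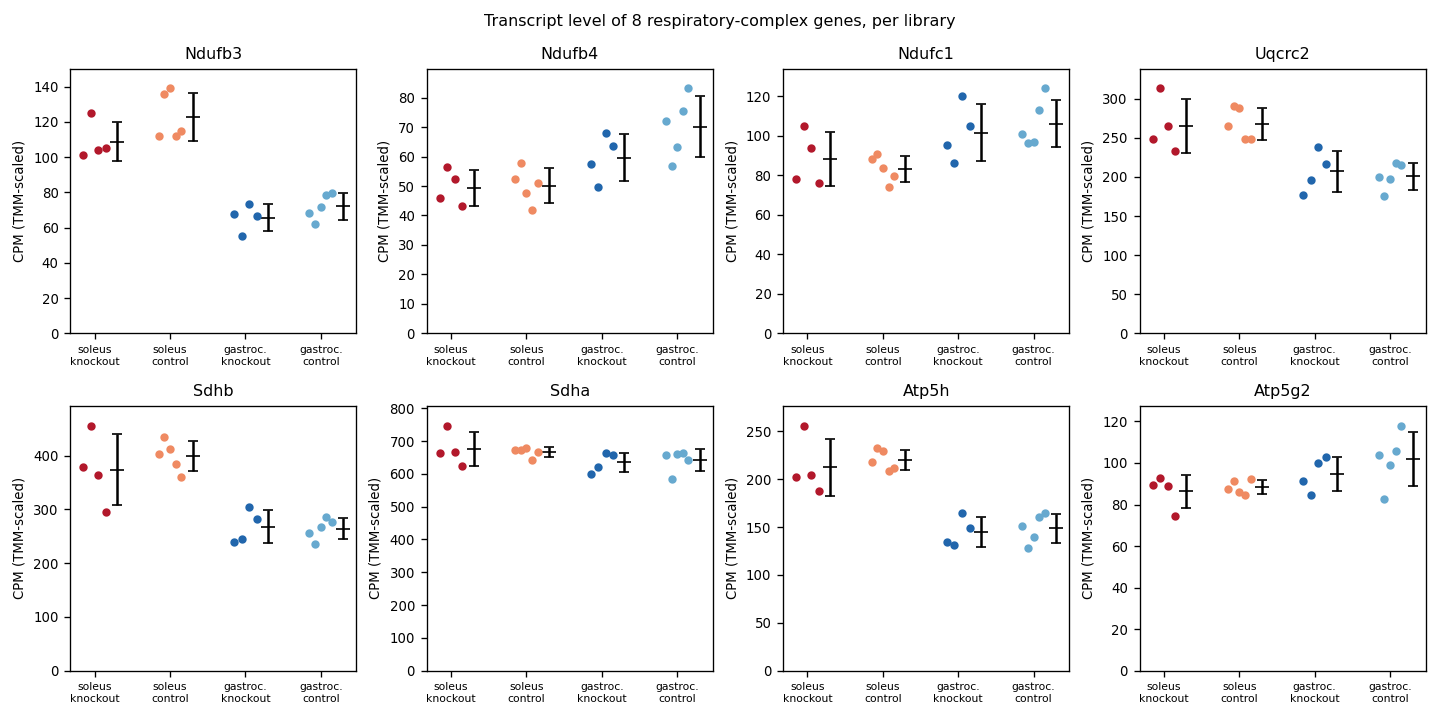
Transcript level per library (TMM-scaled CPM, linear axes from 0) of 8 members in soleus and gastrocnemius libraries labelled knockout and control, with each group's mean ± SD beside its points. Ndufb3, Uqcrc2, Sdhb and Atp5h are higher in the soleus, Sdha differs little, and Ndufb4, Ndufc1 and Atp5g2 are lower in control soleus with this scaling but were not called on raw library totals.

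In complex III, 6 of 9 genes were higher in the soleus in each pair and 0 lower. The share called was 66.7% in each pair, against 37.8% and 49.3% of all genes, mice labelled knockout first. Without gastrocnemius control 3 and knockouts 2 and 6, none of the 9 was called in mice labelled knockout, and in controls Uqcrc2, Uqcrfs1 and Uqcrq stayed called. The called genes on all libraries were both core subunits (Uqcrc1 and Uqcrc2), both catalytic subunits (Cyc1 and the Rieske protein gene Uqcrfs1) and the small subunits Uqcrh and Uqcrq. Uqcrc2 had 248, 313, 265 and 233 CPM in soleus libraries labelled knockout, against 177, 196, 238 and 217 CPM in gastrocnemius libraries labelled knockout. Soleus controls had 265, 290, 288, 249 and 248 CPM, against 200, 175, 197, 218 and 215 CPM in gastrocnemius controls. In controls the muscles did not overlap, and in mice labelled knockout they did. Its log2 fold change was 0.36 in mice labelled knockout and 0.41 in controls (SE 0.10 and 0.09, adjusted p = 0.00656 and 0.000517 by edgeR), and without the 3 libraries it was 0.22 in mice labelled knockout (adjusted p = 0.119). Uqcrc1 was called in 17 of 27 alternative fits in mice labelled knockout and in 25 in controls. Uqcr10, Uqcr11 and Uqcrb, also small subunits, were not called, with values from 0.07 to 0.25. Cycs was 0.38 higher in soleus of mice labelled knockout and 0.21 in controls (SE 0.08 and 0.07, adjusted p = 0.00078 and 0.0172), and without the 3 libraries it stayed called in mice labelled knockout (0.28) and not in controls (0.12, adjusted p = 0.135).

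In complex V, 7 of 17 genes were higher in the soleus and 0 lower in mice labelled knockout, and 6 were higher and 2 lower in controls. The share called was 41.2% in mice labelled knockout and 47.1% in controls, near the 37.8% and 49.3% of all genes. Without gastrocnemius control 3 and knockouts 2 and 6, Atp5h alone of the 7 stayed called in mice labelled knockout and 1 gene was lower, and in controls 3 stayed higher (Atp5a1, Atp5g3 and Atp5h) and 1 was lower. In mice labelled knockout 4 genes were higher when gastrocnemius knockout 2, 6 or 9 or soleus knockout 39 or 40 was left out alone, and in controls 3 were higher without gastrocnemius control 3 or knockout 7. The 2 lower genes of controls became 1 without gastrocnemius control 1, 3 or 4 or soleus control 36, 37 or 41, and 0 without gastrocnemius control 5 or 8 or soleus control 34 or 38. Atp5h, which encodes subunit d of the peripheral stalk (ENSMUSG00000034566, GRCm38 chr11:115415689-115419962), had 202, 256, 204 and 188 CPM in soleus libraries labelled knockout, against 134, 131, 165 and 149 CPM in gastrocnemius libraries labelled knockout. Soleus controls had 218, 233, 229, 209 and 212 CPM, against 151, 128, 140, 160 and 165 CPM in gastrocnemius controls. No soleus library overlapped a gastrocnemius library. The log2 difference was 0.55 in mice labelled knockout (SE 0.10, adjusted p = 8.27e-05 by edgeR) and 0.57 in controls (SE 0.09, adjusted p = 1.07e-05). The other stalk genes Atp5f1, Atp5j and Atp5o had values from 0.11 to 0.30. Atp5f1 and Atp5j were called in mice labelled knockout (adjusted p = 0.0493 and 0.0436 by edgeR), and none of the 3 was called in controls. Most alternatives ended these calls: in mice labelled knockout Atp5f1 was called in 8 of 27 and Atp5j in 12 of 27. Of the catalytic head, Atp5a1 was higher in both pairs by 0.30 and 0.32, mice labelled knockout first. Without the 3 libraries Atp5a1 was at 0.24 in mice labelled knockout (adjusted p = 0.0532). Atp5b was called in controls (0.22) and not in mice labelled knockout (0.14, adjusted p = 0.188). None of the 4 small membrane subunits was called in either pair.

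The c ring is made of copies of a single protein, subunit c, that 3 genes encode with different mitochondrial targeting peptides. Per length, Atp5g2 (ENSMUSG00000062683, GRCm38 chr15:102662864-102672352) gave 19.0%, 15.5%, 17.1% and 16.7% of the 3 genes' counts in soleus libraries labelled knockout and 17.2%, 16.7%, 15.6%, 18.7% and 18% in soleus controls. It gave 23.4%, 22.2%, 20.3% and 23.3% in gastrocnemius libraries labelled knockout and 24.4%, 22.5%, 23.1%, 22.1% and 24.3% in gastrocnemius controls. All 9 soleus shares lay below all 9 gastrocnemius shares, and these shares need no scaling between libraries. The means were 17.1% in soleus and 22.3% in gastrocnemius of mice labelled knockout (exact two-sided permutation p = 0.0286, adjusted over 16 tests 0.0762) and 17.2% and 23.3% in controls (p = 0.00794, adjusted 0.0423).

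Atp5g3 (ENSMUSG00000018770) held the largest share, 54.3% in soleus and 51.2% in gastrocnemius of mice labelled knockout (exact permutation p = 0.0857, adjusted 0.171) and 55.0% and 49.1% in controls (p = 0.00794, adjusted 0.0423). Atp5g1 (ENSMUSG00000006057) held 28.6% in soleus and 26.5% in gastrocnemius of mice labelled knockout (exact permutation p = 0.0286, adjusted 0.0762) and 27.7% and 27.6% in controls (p = 0.865). Between libraries labelled knockout and controls of the same muscle, none of the shares passed (smallest exact permutation p = 0.0794, for Atp5g3 in the gastrocnemius). As levels, Atp5g2 was 0.14 lower in soleus of mice labelled knockout and 0.20 lower in controls on the log2 scale (adjusted p = 0.254 and 0.0429 by edgeR), and on raw totals it was 0.09 and 0.06 higher, not called.

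**Figure D5:**
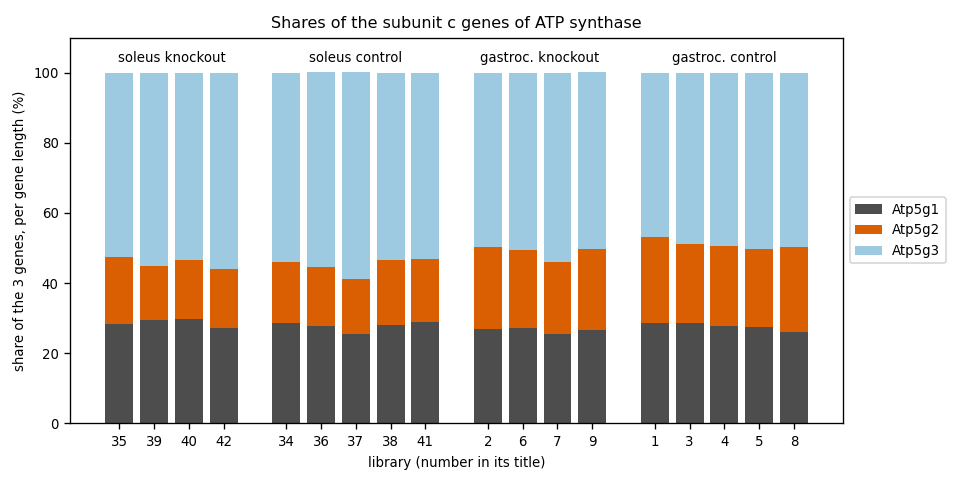
Share of each of the 3 subunit c genes in their summed counts per gene length (%), 1 stacked bar per library, groups from left to right soleus knockout, soleus control, gastrocnemius knockout and gastrocnemius control as labelled. Atp5g2, the middle segment, is 15.5% to 19.0% of every soleus bar and 20.3% to 24.4% of every gastrocnemius bar.

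Sequences upstream of these genes are shown as a description. Whether a motif goes with a difference between the muscles was not tested. RefSeq windows of 300 bases (250 before to 50 after the annotated start, GRCm38.p6) were found for 57 of the 68 members, 62 windows in all. Searched on both strands, the NRF1 motif (GCGCA followed directly by its reverse complement) was in 6.5% of member windows and 0.97% of all 32851 windows, the ERR motif TCAAGGTCA in 3.2% and 0.42%, the ETS motif of GABP CCGGAAG in 21% and 8.86%, the YY1 motif AAGATGGCG in 11.3% and 1.4%, and the GC box GGGCGG in 40.3% and 35.66%. Of the 62 member windows, 4 held the NRF1 motif, 2 the ERR motif, 13 the ETS motif, 7 the YY1 motif and 25 the GC box. The difference from all windows was not tested. No motif shares a site with another in the windows printed. Median GC content was 59.0% in member windows and 52.7% in all windows. Capitals mark a motif on either strand in the windows of the genes with the largest difference in each direction and of 2 subunit c genes, each written 5′ to 3′ on the gene's own strand. Ndufb3 (chr1:58586147-58586446, plus strand) holds none of the motifs, and Sdhb (chr4:140961021-140961320, plus strand) holds 3 GC boxes and an ETS motif.
Ndufb3: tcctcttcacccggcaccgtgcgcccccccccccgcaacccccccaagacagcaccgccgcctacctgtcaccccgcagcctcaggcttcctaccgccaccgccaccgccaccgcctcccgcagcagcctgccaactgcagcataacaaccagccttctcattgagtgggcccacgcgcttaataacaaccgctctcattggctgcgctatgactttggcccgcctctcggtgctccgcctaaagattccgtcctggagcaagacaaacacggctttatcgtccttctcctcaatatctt
Sdhb: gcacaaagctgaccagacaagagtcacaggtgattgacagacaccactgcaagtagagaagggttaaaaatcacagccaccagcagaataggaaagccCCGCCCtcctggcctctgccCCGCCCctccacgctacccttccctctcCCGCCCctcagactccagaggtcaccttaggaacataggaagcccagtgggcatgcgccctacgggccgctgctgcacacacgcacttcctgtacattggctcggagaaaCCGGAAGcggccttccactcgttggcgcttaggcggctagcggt
Atp5h (chr11:115419870-115420169, minus strand) holds an ETS motif on the opposite strand, and Atp5g3 (chr2:73911277-73911576, minus strand) an ERR motif on the opposite strand.
Atp5h: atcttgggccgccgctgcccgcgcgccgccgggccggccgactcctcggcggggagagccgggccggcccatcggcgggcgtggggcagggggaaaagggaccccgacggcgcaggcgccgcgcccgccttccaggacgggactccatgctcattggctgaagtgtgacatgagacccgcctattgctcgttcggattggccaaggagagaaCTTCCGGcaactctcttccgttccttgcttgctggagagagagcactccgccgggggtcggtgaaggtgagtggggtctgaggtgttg
Atp5g3: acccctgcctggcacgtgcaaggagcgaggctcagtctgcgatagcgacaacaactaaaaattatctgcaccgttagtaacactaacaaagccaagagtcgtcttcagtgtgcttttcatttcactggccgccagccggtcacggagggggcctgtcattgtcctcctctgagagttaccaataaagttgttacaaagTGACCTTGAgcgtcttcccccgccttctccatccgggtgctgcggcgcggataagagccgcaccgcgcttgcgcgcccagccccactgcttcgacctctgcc
Among the genes lower in control soleus, Ndufb4 (chr16:37654319-37654618, minus strand) holds a GC box, Ndufc1 (chr3:51408906-51409205, minus strand) a YY1 motif, and Atp5g2 (chr15:102670998-102671297, minus strand) an NRF1 motif and a GC box.
Ndufb4: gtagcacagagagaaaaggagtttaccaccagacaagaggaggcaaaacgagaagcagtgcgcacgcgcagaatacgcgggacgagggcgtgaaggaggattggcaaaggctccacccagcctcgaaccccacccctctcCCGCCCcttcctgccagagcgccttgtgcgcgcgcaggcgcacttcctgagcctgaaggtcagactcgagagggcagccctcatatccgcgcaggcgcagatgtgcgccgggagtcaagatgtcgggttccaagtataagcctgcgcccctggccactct
Ndufc1: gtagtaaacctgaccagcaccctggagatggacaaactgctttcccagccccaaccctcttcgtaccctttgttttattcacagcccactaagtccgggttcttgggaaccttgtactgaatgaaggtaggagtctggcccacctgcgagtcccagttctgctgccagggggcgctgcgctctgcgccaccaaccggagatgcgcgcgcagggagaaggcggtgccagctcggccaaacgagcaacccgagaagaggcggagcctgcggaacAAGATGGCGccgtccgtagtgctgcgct
Atp5g2: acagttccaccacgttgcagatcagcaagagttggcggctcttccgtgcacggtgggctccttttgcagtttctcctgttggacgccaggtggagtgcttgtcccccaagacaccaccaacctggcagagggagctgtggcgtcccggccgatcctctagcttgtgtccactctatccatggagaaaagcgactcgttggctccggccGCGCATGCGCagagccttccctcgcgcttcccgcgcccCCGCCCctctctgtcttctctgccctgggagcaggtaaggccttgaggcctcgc
Each match is a description of these letters in this window.

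Assembly factors were called on both sides between the muscles. In mice labelled knockout 6 of 31 were higher in the soleus and 4 lower, and in controls 6 were higher and 8 lower, with a median log2 fold change of 0.01 and -0.06. The share called was 32.3% in mice labelled knockout and 45.2% in controls, below the 37.8% and 49.3% of all genes. Without gastrocnemius control 3 and knockouts 2 and 6, 3 were higher and 5 lower in mice labelled knockout, and 1 was higher and 9 lower in controls. Of all genes 35.2% and 48.6% were called in that fit, mice labelled knockout first. On raw totals 14 were higher and 1 lower in mice labelled knockout, and 16 were higher and 3 lower in controls. Of all genes 43.7% and 56.8% were called on raw totals, in the same order. Sdhaf4, which helps mature the Sdha flavoprotein, had 12.3, 14.8, 12.9 and 13.3 CPM in soleus and 6.01, 6.21, 7.35 and 8.49 CPM in gastrocnemius libraries labelled knockout. Controls had 13.0, 15.2, 15.1, 13.4 and 11.9 CPM in the soleus and 7.89, 5.57, 7.05, 6.75 and 8.62 CPM in the gastrocnemius. The muscles did not overlap, and the log2 fold change was 0.92 and 0.94 (SE 0.13 and 0.11, adjusted p = 5.62e-06 and 6.17e-07 by edgeR, mice labelled knockout first).

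Uqcc2, an assembly factor for cytochrome b of complex III, was lower in the soleus. It averaged 43.0 ± 6.19 CPM in soleus and 65.8 ± 8.67 CPM in gastrocnemius libraries labelled knockout (SD, n = 4 each), and 44.7 ± 6.40 and 68.4 ± 6.36 CPM in controls (SD, n = 5 each). The log2 fold change was -0.61 in each pair (SE 0.12 and 0.11, adjusted p = 0.000354 and 6.97e-05 by edgeR), and it remained called on raw totals at -0.39 and -0.35. Uqcc3, which acts in the same step, was lower by 0.34 in mice labelled knockout and by 0.57 in controls on the log2 scale. Uqcc3 was not called on raw totals in mice labelled knockout (-0.11). Of the others called with the smallest p, Sdhaf3, for the iron-sulfur protein of complex II, was at -0.54 and -0.53, Ndufaf6, for complex I, at -0.32 and -0.57, and Lyrm7, for the Rieske protein, at 0.46 and 0.28, mice labelled knockout first in each pair. Fmc1, whose yeast counterpart is needed to assemble the head of the ATP synthase, was at 0.38 and 0.27. Atpaf2, another assembly factor for that head, was at -0.23 and -0.30 (adjusted p = 0.0503 in mice labelled knockout and 0.00528 in controls by edgeR).

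Of the nuclear genes of complex IV, which the rule left out, more were higher in the soleus than lower. Of 15 complex IV genes, 7 were higher in the soleus and 0 lower in mice labelled knockout, and 8 were higher and 0 lower in controls, with medians of 0.34 and 0.25. The share called was 46.7% in mice labelled knockout and 53.3% in controls, against 37.8% and 49.3% of all genes. Without gastrocnemius control 3 and knockouts 2 and 6, 3 and 4 of the 15 were called, all higher. That share was below the 35.2% and 48.6% of all genes called in the same fit, mice labelled knockout first. In the gastrocnemius and the soleus 0 of the 15 were called between libraries labelled knockout and controls. Mitochondrially encoded mRNA counts per member count were 5.62 to 6.53 in soleus libraries labelled knockout and 4.93 to 5.91 in soleus controls, and 4.92 to 7.05 and 5.65 to 6.34 in the gastrocnemius groups in the same order. All 4 ranges overlap.

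Fibre composition moved with every difference between the muscles. Slow myosin Myh7 was at 5800 to 9150 CPM in soleus libraries labelled knockout and 8130 to 11500 CPM in soleus controls, against 107 to 357 CPM and 346 to 530 CPM in the gastrocnemius groups. Fibroblast markers summed to 1040 to 2300 CPM and 967 to 1520 CPM in the soleus groups, against 2450 to 4050 CPM and 1820 to 3050 CPM in the gastrocnemius groups. The brown adipocyte markers ran both ways. Cidea was at 3.64 to 5.49 CPM and 2.74 to 4.03 CPM in the soleus groups, against 0.399 to 1.31 CPM and 0.159 to 0.964 CPM in the gastrocnemius groups. Ucp1 was at 0 to 0.0807 CPM and 0 to 0.0324 CPM in the soleus groups, with no count in 2 of 4 and 4 of 5 libraries, against 0.937 to 1.29 CPM and 0 to 0.268 CPM in the gastrocnemius groups. Macrophage markers summed to 82.0 to 143 CPM and 64.5 to 105 CPM in the soleus groups, against 137 to 261 CPM and 101 to 145 CPM in the gastrocnemius groups, libraries labelled knockout first in each pair.

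Of 6 endothelial markers, 4 were higher in the soleus and 1 lower in mice labelled knockout, and 5 were higher and 0 lower in controls. They summed to 333 to 370 CPM in soleus and 298 to 341 CPM in gastrocnemius libraries labelled knockout, and to 354 to 372 CPM in soleus and 293 to 310 CPM in gastrocnemius controls, which did not overlap. Of 4 Schwann cell markers, 4 were lower in the soleus in mice labelled knockout and 3 in controls. These summed to 70.9 to 151 CPM in soleus and 184 to 314 CPM in gastrocnemius libraries labelled knockout, and to 65.2 to 235 CPM in soleus and 210 to 365 CPM in gastrocnemius controls. No macrophage, fibroblast, endothelial or Schwann cell marker was at 0 in a whole group. Their part in the differences between the muscles was not tested.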

How the data were processed

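RNA-seq of 18 libraries was analysed. The submitters' processing notes name build GRCm38, featureCounts 1.4.6-p5 from Subread, the aligner STAR 2.5.1a and bcl2fastq; they give no strand or multi-mapping setting. The authors deposited raw counts per gene, with CPM and RPKM scaled to the raw library total. Recomputing the deposited CPM and RPKM from the counts gave differences of at most 4.9e-10 and 4.7e-10. Symbols of the mouse GENCODE release M21 matched 40254 of 41388 identifiers (97.3%), and no row lacked a gene.

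Groups were taken from the titles. Counts were tested with edgeR 4.0.16 in R 4.3.3 (quasi-likelihood, TMM, filterByExpr with a minimum count of 10 and total of 15, Benjamini-Hochberg over all genes, threshold 0.05). The knockout comparisons used the libraries of 1 muscle, and the others used all 18. Alternatives were DESeq2 1.42.0, limma 3.58.1 voom, other scaling, other filters, a gene length offset, other sets of libraries and leaving out libraries; raw library totals were added after seeing the data. The scripts were tested on simulated data. Replicates differed by more than sampling noise (chi-square per gene at least 17.75). Members, gene lists and alternatives were chosen with earlier results of these data known. Genes were named by a panel, by the smallest p per complex and by the largest and smallest fold changes per complex; other names were chosen after their values were seen. 1 member is counted but not reported by name here.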

Additional observations from a re-analysis of the deposited data

Results flagged for a closer look

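Of 160 groups of libraries examined over the named genes, the sums per complex and the sum of all members, 2 had a library far from the others. Chance alone gives about 1 in 20. Both concern gastrocnemius control 3, whose share of Ttn counts was 12.08%. For Ndufs7 it had 180 CPM, against 211 to 223 CPM in the other gastrocnemius controls. For Sdha it had 584 CPM, against 642 to 665 CPM in the other gastrocnemius controls. The part of control 3's composition in these values was not tested.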

How the results depend on the processing

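Counts of members called kept within 1.5 times the main count except as follows. In the gastrocnemius knockout comparison they were 0 to 1 when 1 library was left out. Without gastrocnemius control 3 and knockouts 2 and 6, 10 members were called between the muscles in mice labelled knockout and 21 in controls, and on raw totals 51 in mice labelled knockout. On raw totals the mean summed level moved by more than 1 SD for complex I (soleus controls 5451 CPM, gastrocnemius controls 4234 CPM), complex II (1541 and 1074), complex III (2719 and 1896), complex V (7999 and 5674) and all members (17970 and 13070), and for Cycs (278.5 in soleus libraries labelled knockout, 263.8 in soleus controls, 189.3 in gastrocnemius controls). Log2 fold changes that changed sign under an alternative are given with their new values. The list covers only the genes named by rule in each comparison, not all members. On raw library totals, Atp5a1 0.0121, Cyc1 0.0042, Sdha 0.0464 and Uqcrfs1 0.0532 (gastrocnemius, knockout minus control), Atp5b 0.0019 and Uqcrc2 0.0067 (soleus, knockout minus control), Atp5e 0.1427 and Atp5g2 0.0612 (soleus minus gastrocnemius, controls), Atp5e 0.1066, Atp5g2 0.0913, Atp5k 0.1815, Ndufa12 0.0978 and Ndufc1 0.0202 (soleus minus gastrocnemius, mice labelled knockout), Ndufv1 -0.0317, Sdha -0.0046 and Uqcrfs1 -0.0091 (difference of the knockout effects) changed sign. With DESeq2, Ndufs1 -0.0035 and Ndufv1 -0.0116 (gastrocnemius, knockout minus control), Atp5a1 0.0213 (difference of the knockout effects) changed sign. Without the filter on low counts, Ndufs1 -0.0032 and Ndufv1 -0.011 (gastrocnemius, knockout minus control) changed sign. With the length offset, Ndufs1 -0.021, Ndufv1 -0.0165 and Sdhb -0.0 (gastrocnemius, knockout minus control), Ndufv1 -0.0012 (soleus, knockout minus control), Uqcr10 -0.114 and Uqcr11 -0.0574 (soleus minus gastrocnemius, controls), Uqcr10 -0.0319 (soleus minus gastrocnemius, mice labelled knockout), Atp5a1 0.0304 and Ndufs1 0.0037 (difference of the knockout effects) changed sign. With RLE factors, Ndufv1 -0.0079 (gastrocnemius, knockout minus control), Atp5a1 0.0216 (difference of the knockout effects) changed sign. Without mitochondrially encoded genes and Ttn, Ndufv1 -0.0066 (gastrocnemius, knockout minus control) changed sign. Without control 3 and knockouts 2 and 6, Sdha 0.0075 and Uqcrfs1 0.033 (gastrocnemius, knockout minus control), Sdha -0.0207 and Uqcr10 -0.0181 (soleus minus gastrocnemius, controls), Uqcr10 -0.0121 (soleus minus gastrocnemius, mice labelled knockout), Atp5a1 0.0196 (difference of the knockout effects) changed sign. In voom with sample weights, Atp5a1 0.0144 (difference of the knockout effects) changed sign. When 1 library was left out, these log2 fold changes changed sign and ran, lowest to highest, over Atp5g3 -0.0789 to 0.0835, Ndufs1 -0.0223 to 0.0459, Ndufv1 -0.0445 to 0.0309, Sdha -0.0434 to 0.0088, Sdhb -0.0487 to 0.0659, Uqcrc2 -0.0316 to 0.1066 and Uqcrfs1 -0.0627 to 0.0494 (gastrocnemius, knockout minus control). For others the range was Atp5b -0.0778 to 0.0297, Atp5g1 -0.0599 to 0.1147, Atp5g2 -0.0644 to 0.0305, Atp5g3 -0.1318 to 0.0194, Cyc1 -0.0327 to 0.0762, Ndufb8 -0.1079 to 0.0378, Ndufs1 -0.111 to 0.0025, Ndufv1 -0.0478 to 0.0485, Sdha -0.0267 to 0.0543, Sdhb -0.1991 to 0.0019, Sdhd -0.0075 to 0.1079, Uqcrc2 -0.0973 to 0.0422 and Uqcrfs1 -0.08 to 0.0833 (soleus, knockout minus control). For others the range was Atp5k -0.1166 to 0.0192 (soleus minus gastrocnemius, mice labelled knockout). For others the range was Atp5a1 -0.083 to 0.054, Atp5b -0.1388 to 0.0013, Atp5g3 -0.1704 to 0.0723, Ndufs1 -0.1299 to 0.0169, Ndufv1 -0.0585 to 0.0872, Sdha -0.0214 to 0.0885, Uqcrc2 -0.1477 to 0.0521 and Uqcrfs1 -0.0814 to 0.1218 (difference of the knockout effects). The cause of these changes was not tested. No paired analysis was possible because the groups share no replicate number and no label ties a gastrocnemius to a soleus library of the same mouse. The lowest count of any member in a library was 203 (Atp5s). The largest SE of the difference of the knockout effects, 0.388, belonged to another member.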
